A study of Mus musculus with 58 samples.

Results

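Hematopoietic stem cells (HSCs) of old and of young mice with free access to food were compared by RNA-seq. The comparison took in every RNA-seq library of native OAL (Old Ad Libitum) and YAL (Young Ad Libitum) HSCs, 4 of each, which are 8 of the 58 samples of the series. Genes were kept where their mean over these 8 libraries was at least 5 CPM (counts scaled to the same library total), since the old and the young libraries differed in low-level background and in make-up. This left 12323 of the 55376 genes in each count file. The series asks how caloric restriction (CR) acts on HSCs across life, and beside RNA-seq it holds ATAC-seq and ChIP-seq libraries. OAL mice were male, wild-type C57BL/6 animals of 24 to 26 months from the National Institute on Aging colony. YAL mice were male, wild-type C57BL/6 animals of 3 to 4 months from The Jackson Laboratory. Neither group received CR or any other treatment. Age and source of the animals cannot be told apart. HSCs were sorted from bone marrow, after enrichment for c-Kit, as live lineage-negative cells with Sca-1, c-Kit and CD150 and without CD34 and Flk2. The study's figure captions count mice for these libraries, no source used here says whether mice were pooled for a library, and p-values measure the spread between these libraries. OCR (Old Caloric Restricted) and YCR (Young Caloric Restricted) HSCs, 4 libraries each, gave a second comparison of old with young that shares no library with the first. OCR mice were of the age of the OAL mice and had received 40% CR since the age of 3 to 4 months, while YCR mice were young and had received 20% CR for the first week and 40% CR for the rest of a month.

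HSCs sit at the top of blood formation, are mostly quiescent, and divide rarely to renew themselves or to produce progenitors of every blood lineage. With age the phenotypic HSC pool of mice expands, each cell reconstitutes less well after transplantation, and output leans to platelets and myeloid cells at the expense of lymphocytes. Old HSCs are known for higher levels of platelet genes such as Vwf and Selp, of cytokine and adhesion receptors, and for slower entry into the cell cycle.

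OAL libraries held 30235212 to 33772852 counts and YAL libraries 17454892 to 35676728. Within each age, libraries of a group differed by more than sampling noise, and none was a repeat of another. The groups differed in what lies at low levels. A count was present for 42071 to 43972 genes in OAL libraries and for 25936 to 28713 in YAL libraries. Olfactory and vomeronasal receptor genes, which stem cells are not known to use, summed to 553 to 788 CPM in OAL and to 113 to 229 CPM in YAL libraries, a ratio of 3.74 (exact permutation test, two-sided, p = 0.0286, the smallest that 4 against 4 libraries allow). This background moved with age in every library, and its part in the results below was not tested. A fit that carried it as a covariate cannot tell it from age, since its ranges in OAL and YAL libraries did not overlap. A call kept or lost in that fit therefore does not show the part of the background. In that fit 92.7% of the calls kept their sign, the median standard error rose from 0.116 to 0.347, 32 genes were called higher and 5 lower in OAL HSCs, and 6 of the 95 called genes named here kept their call. The gate was present in both groups: 12 markers of HSCs and of the sort summed to 5038 to 5621 CPM in OAL and 5093 to 5260 CPM in YAL HSCs. Procr, the endothelial protein C receptor that marks HSCs, was at 244 to 289 CPM in OAL and 215 to 261 CPM in YAL HSCs (log2 fold change 0.15 ± 0.08 SE, adjusted p = 0.239). Hlf, a stem cell transcription factor, was at 627 to 697 and 553 to 682 CPM (log2 fold change 0.16 ± 0.07 SE, adjusted p = 0.16). Neither passed the test, and the ranges overlapped.

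A gene was called a DEG (differentially expressed gene) at a Benjamini-Hochberg adjusted p below 0.05 in edgeR's quasi-likelihood test and a fold change above 1.2. Of the 12323 genes tested, 933 were higher in OAL HSCs (7.57%) and 810 were lower (6.57%). The 4 OAL and the 4 YAL libraries did not overlap for 22.2% of all genes tested and for 94.2% of the DEGs. Rises were larger than falls: the median absolute log2 fold change was 0.66 among higher and 0.44 among lower DEGs, 247 rises but 78 falls passed 2-fold, and 78 rises but 16 falls passed 4-fold. The level filter took the mean of both groups, so a gene near 0 in 1 group could pass through the other alone. The mean was below 1 CPM in YAL HSCs for 12 rises and in OAL HSCs for 3 falls. With a mean of 5 CPM required in each group, 857 rises and 741 falls were called. In that fit 68 of the 95 called genes named here kept their call. The part of the filter in the sizes was not tested. Higher DEGs had longer exons in sum (median 5809.5 bases, against 3643 for lower DEGs and 4314 for genes not called) and a lower GC content (median 47.5%, against 53.2% and 49.3%). Across tested genes the log2 fold change correlated with exon length at a Spearman coefficient of 0.229 and with GC content at -0.223. When each library's trend on length and GC was taken out, the share of rises among the DEGs went from 53.5% to 32.5%, and with scaling factors from a wider set of genes it was 24.4%, where the median of all genes moved from -0.02 to -0.13 on the log2 scale. The balance of rises and falls therefore depended on the scaling. The counts also leaned on the number of OAL libraries: without OAL replicate 1, 2 or 4 there were 551, 513 and 591 rises and 422, 381 and 471 falls. With each of the 8 libraries left out in turn, 469 rises and 335 falls were called every time.

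**Figure D1:**
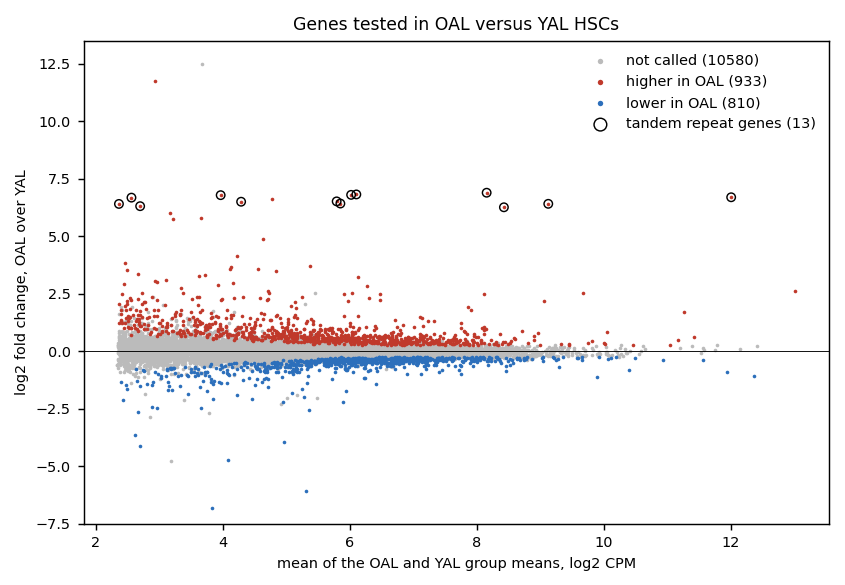
Log2 fold change of OAL over YAL HSCs for each of the 12323 genes tested, against the log2 of the mean CPM of both groups. Red points are the 933 higher and blue points the 810 lower DEGs, and grey points were not called. Open circles mark the 13 predicted genes named tandem repeat genes here as a group, at log2 fold changes of 6.26 to 6.89.

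Among the ranked genes the largest rise was that of Mab21l2 (chr3:86545581-86548629 on mm10), a nuclear protein known from eye development, which read 12.4, 22.4, 17.0 and 19.3 CPM in the 4 OAL libraries and 0, 0.784, 0 and 0.215 CPM in the 4 YAL libraries. It went from near absence in every YAL library to a low but steady level in every OAL library (log2 fold change 5.99 ± 0.75 SE, adjusted p = 0.000429). Tmem215, a transmembrane protein, read 35.4, 26.0, 17.4 and 20.2 CPM in OAL and 0.115, 0.543, 0.114 and 1.08 CPM in YAL HSCs, again without overlap (log2 fold change 5.80 ± 0.55 SE, adjusted p = 5.66e-05). C4b, complement component 4, read 54.1, 52.6, 40.4 and 45.6 CPM in OAL and 0.230, 4.16, 0.795 and 0.969 CPM in YAL HSCs (log2 fold change 4.87 ± 0.56 SE, adjusted p = 0.00025). The groups were again apart. Rorb, a nuclear receptor of the retinoid orphan receptor family, read 40.9, 33.4, 34.2 and 32.4 CPM in OAL and 1.49, 2.05, 1.56 and 2.91 CPM in YAL HSCs (log2 fold change 4.15 ± 0.23 SE, adjusted p = 6.03e-07).

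Osmr, the receptor of the cytokine oncostatin M, read 35.2, 33.6, 27.3 and 31.3 CPM in OAL and 4.83, 0.362, 4.03 and 1.67 CPM in YAL HSCs (log2 fold change 3.57 ± 0.53 SE, adjusted p = 0.00143). Gpr183, an oxysterol receptor that guides immune cells, was the most abundant of the 15 largest ranked rises, at 132, 123, 114 and 138 CPM in OAL and 6.78, 6.49, 27.4 and 12.5 CPM in YAL HSCs (log2 fold change 3.23 ± 0.38 SE, adjusted p = 0.000297). The lowest OAL value of either gene lay above the highest YAL value. Further rises are given here with the range over the 4 YAL libraries before that over the 4 OAL libraries: Gabra4, a subunit of the GABA-A receptor, rose from 0.121–2.07 to 9.94–13.0 CPM (3.35 on the log2 scale), and Kcnb2, a potassium channel, from 0–3.41 to 9.94–16.6 CPM (3.04). Kcnb2 lost its call when OAL replicate 2 was left out (log2 fold change 2.95) and with all 6 native groups in 1 fit (3.08). Sbspon, a secreted protein with a thrombospondin domain, reached 60.1 to 91.8 CPM in OAL against 4.52 to 8.99 CPM in YAL HSCs (3.70). Tdrd9, a helicase of the germline piRNA pathway, reached 41.8 to 62.5 against 0.965 to 8.66 CPM (3.50), and Rbpjl, a relative of the Notch effector RBPJ, 15.9 to 35.2 against 0.633 to 4.31 CPM (3.27). Pcdhb16, a protocadherin, and Synpo, an actin-binding protein, were also among the 15 largest ranked rises, as was the metallothionein Mt2, at log2 fold changes of 3.51, 3.84 and 3.68. Of the DEGs without overlap, 85 rises and 38 falls were predicted genes, receptor genes, antigen receptor segments or pseudogenes and were counted but not ranked.

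**Figure D2:**
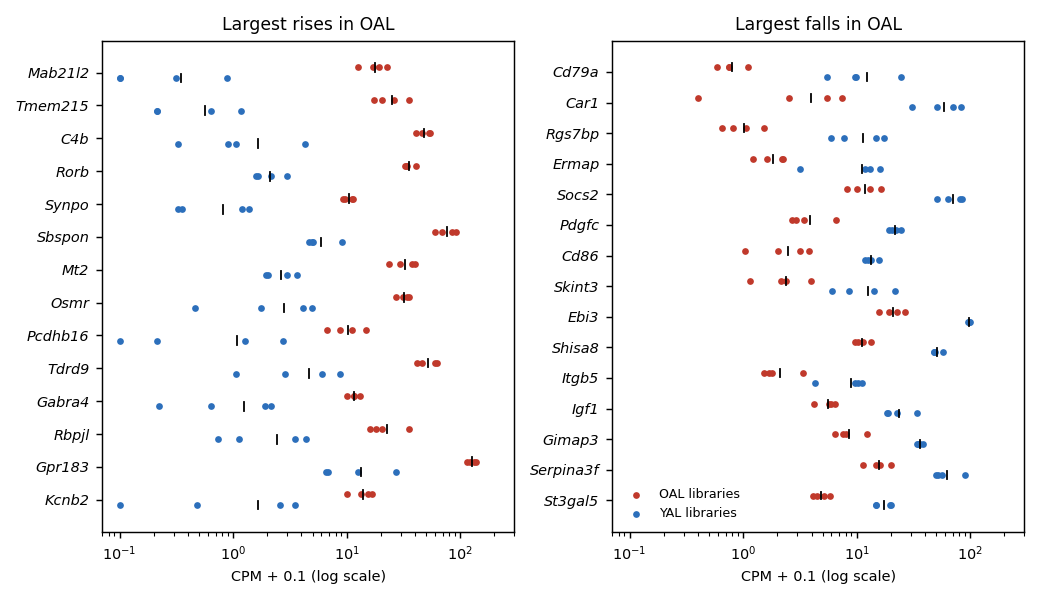
CPM plus 0.1, on a log axis, of 14 of the 15 largest ranked rises (left) and the 15 largest ranked falls (right) in each OAL (red) and YAL (blue) library, with a black bar at the mean of each group. For each of these genes the red and blue points do not overlap, which is part of how the genes were chosen.

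Among the ranked genes the largest fall was that of Cd79a, the signalling chain of the B cell receptor, which read 0.997, 0.492, 0.649 and 0.647 CPM in OAL and 24.5, 9.47, 5.36 and 9.80 CPM in YAL HSCs (log2 fold change -4.12 ± 0.48 SE, adjusted p = 0.000263). Car1, a carbonic anhydrase of red cell precursors, read 0.302, 2.43, 5.33 and 7.25 CPM in OAL and 83.5, 30.6, 50.6 and 70.7 CPM in YAL HSCs (log2 fold change -3.94 ± 0.64 SE, adjusted p = 0.00215). Every YAL library lay above every OAL library for both, and whether fewer cells held these transcripts or each cell held less cannot be told apart in bulk libraries. Socs2, a feedback inhibitor of cytokine receptors, read 16.2, 10.1, 8.09 and 13.0 CPM in OAL and 50.4, 84.8, 81.4 and 63.0 CPM in YAL HSCs (log2 fold change -2.56 ± 0.23 SE, adjusted p = 3.91e-05). Ebi3, a subunit shared by interleukins 27 and 35, read 15.5, 19.0, 22.4 and 26.4 CPM in OAL and 97.5, 94.8, 100.01 and 97.6 CPM in YAL HSCs (log2 fold change -2.23 ± 0.15 SE, adjusted p = 2.31e-06). Shisa8, a transmembrane protein, fell from 47.5–57.4 to 9.50–13.2 CPM (-2.19 on the log2 scale). Igf1, insulin-like growth factor, went from 18.3–33.5 to 4.08–6.39 CPM (-2.09), and Pdgfc, a platelet-derived growth factor, from 19.3–24.2 to 2.60–6.51 CPM (-2.50). Cd86, which gives T cells a second signal, fell from 11.8–15.6 to 0.936–3.67 CPM (-2.46), and Gimap3, a GTPase of immune cells, from 33.7–38.3 to 6.29–12.2 CPM (-2.07). Serpina3f, a protease inhibitor, Itgb5, an integrin chain, St3gal5, which makes ganglioside GM3, Skint3, Ermap of the red cell membrane and Rgs7bp made up the rest of the 15 largest ranked falls, at -2.0, -2.13, -1.84, -2.45, -2.67 and -3.63.

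The consensus HSC aging signature (AS) is a published list of transcripts that several earlier studies found changed in old HSCs, so it asks whether these libraries moved the same way as other data. Of 180 listed AS genes that rise with age, 174 passed the level filter, 134 rose in OAL HSCs and none fell, and their median log2 fold change was 0.92, against -0.02 over all genes tested. Of 39 listed AS genes that fall with age, all 39 were tested, 32 fell and none rose, with a median of -0.91. The share called was 77.0% and 82.1%, against the background of 7.57% and 6.57% over all genes. With each library left out, 111 to 136 AS genes were called higher and 27 to 32 lower. Egr1, Mllt3 and Tsc22d1 were the only listed rises with a log2 fold change below 0, at -0.07, -0.03 and -0.03, and none passed the test (adjusted p 0.93, 0.86 and 0.851). Egr1, an immediate early transcription factor, read 166, 63.0, 56.2 and 61.4 CPM in OAL and 48.6, 153, 93.2 and 67.2 CPM in YAL HSCs, so its libraries spread widely within each age. Satb1, a chromatin organizer of lymphoid genes, is a listed fall that missed the call in spite of separate groups, at 6.92, 3.87, 7.99 and 6.38 CPM in OAL and 8.33, 12.7, 20.4 and 8.61 CPM in YAL HSCs (log2 fold change -1.0 ± 0.32 SE, adjusted p = 0.0602). It passed in DESeq2 (-0.99) and without YAL replicate 1 or 4 (-1.14 and -1.13).

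Clu and Selp were called in every fit without 1 library. Clu, the secreted chaperone clusterin, read 194, 198, 205 and 226 CPM in OAL and 84.6, 59.0, 79.6 and 79.8 CPM in YAL HSCs (log2 fold change 1.45 ± 0.11 SE, adjusted p = 7.88e-06). Selp, the platelet adhesion molecule P-selectin, read 451, 499, 407 and 532 CPM in OAL and 84.2, 84.7, 87.6 and 79.1 CPM in YAL HSCs (log2 fold change 2.49 ± 0.09 SE, adjusted p = 2.04e-08). The lowest OAL value of Selp was over 4 times the highest YAL value. With the background as a covariate, which that fit cannot tell from age, Selp was at 2.77 ± 0.26 SE and still called. Jun, a subunit of the AP-1 transcription factor, rose from 16.2–33.4 to 48.6–61.7 CPM (1.21 on the log2 scale, adjusted p = 0.00365).

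Genes of platelets and megakaryocytes, which HSCs with a platelet bias express, rose more often than they fell. Of 40 listed genes 33 were tested, 15 rose (45.5%, against 7.57% of all genes tested) and 2 fell (6.06%, against 6.57%; 1 to 3 fell without 1 library), with a median log2 fold change of 0.28. Itgb3, an integrin chain of the platelet fibrinogen receptor, read 379, 403, 325 and 354 CPM in OAL and 66.4, 98.5, 116 and 108 CPM in YAL HSCs (log2 fold change 1.91 ± 0.15 SE, adjusted p = 9.46e-06). Itga2b, its partner chain, read 179, 192, 185 and 189 CPM in OAL and 147, 111, 97.6 and 126 CPM in YAL HSCs (log2 fold change 0.63 ± 0.11 SE, adjusted p = 0.0031). The groups were separate for both chains, by a wide margin for Itgb3 and a narrow one for Itga2b. Plek, pleckstrin of platelets, rose from 60.1–111 to 187–231 CPM (1.33), and Vwf, von Willebrand factor, from 313–391 to 552–769 CPM (0.81). Gata1, a transcription factor of the lineage, was among the falls and read 1.78, 5.28, 3.41 and 2.98 CPM in OAL and 12.1, 8.81, 9.54 and 8.13 CPM in YAL HSCs (log2 fold change -1.52 ± 0.31 SE, adjusted p = 0.00844). Markers of mature megakaryocytes summed to 249 to 269 CPM in OAL and 172 to 248 CPM in YAL HSCs, with 9 of 9 above 0 in both groups. Itga2b is 1 of these markers and made up most of the sum. Of the 9 markers 4 were tested, Itga2b and Gp9 were called higher (50.0%, against 7.57% of all genes tested) and none lower. Pf4, platelet factor 4, did not pass the test (30.5 to 48.1 CPM in YAL, 25.7 to 36.4 CPM in OAL). The part of such cells in these rises was not tested.

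Receptors at the stem cell surface moved in both directions. Of 32 listed receptors 29 were tested, 10 rose (34.5%, against 7.57% of all genes tested) and 3 fell (10.3%, against 6.57%). Their median log2 fold change was 0.18, and 0 to 3 fell without 1 library. Bmpr1a, a receptor of bone morphogenetic proteins, read 45.7, 41.2, 43.3 and 28.6 CPM in OAL and 6.67, 2.59, 13.1 and 10.2 CPM in YAL HSCs (log2 fold change 2.29 ± 0.38 SE, adjusted p = 0.00256). Its ligand gene Bmp4 read 27.2, 20.0, 28.5 and 34.0 CPM in OAL and 18.6, 13.2, 18.2 and 13.5 CPM in YAL HSCs (log2 fold change 0.79 ± 0.19 SE, adjusted p = 0.0182). The groups were apart by more than 2-fold for the receptor and nearly touched for the ligand, whose call was lost without OAL replicate 1, 3 or 4 (0.67 to 0.79). Kdr, the main receptor of vascular endothelial growth factor, read 44.0, 46.9, 42.3 and 43.6 CPM in OAL and 21.4, 19.5, 32.5 and 20.0 CPM in YAL HSCs (log2 fold change 0.92 ± 0.17 SE, adjusted p = 0.00429), and its call was lost with all 6 native groups in 1 fit (0.93). Vegfa, which encodes that growth factor, went the other way, from 17.0–22.2 to 6.90–9.00 CPM (log2 fold change -1.33 ± 0.17 SE, adjusted p = 0.000484). Kdr also marks endothelium. The 9 endothelial markers summed to 184 to 236 CPM in OAL and 127 to 163 CPM in YAL HSCs, with none at 0 in either group, 2 below 1 CPM in OAL and 3 in YAL HSCs. Cldn5, a tight junction protein of endothelium, was the largest rise of that list (1.38 on the log2 scale), and the part of endothelial cells in these values was not tested. Gprc5c, a retinoid-inducible receptor of quiescent HSCs, rose from 5.98–11.2 to 25.0–27.5 CPM (1.55), but not with all 6 native groups in 1 fit (1.56). Markers of the gate itself shifted unequally. Flt3, which encodes Flk2, was called lower, at -0.80 on the log2 scale, and its libraries are given below. Slamf1, which encodes CD150, was 0.41 higher and Cd34 -0.35 on the log2 scale, and both calls were lost without OAL replicate 2 or 4 (0.40 and 0.38 for Slamf1). The call of Cd34 was also lost without OAL replicate 3 or YAL replicate 1, 2 or 3 (-0.36 to -0.26 over these 6 fits). Kit and Ly6a, which encode c-Kit and Sca-1, did not pass (log2 fold changes 0.20 and 0.10, adjusted p 0.151 and 0.523).

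Of 40 stem cell transcription factors, all 40 were tested, 5 rose (12.5%, against 7.57% of all genes tested) and 2 fell (5.00%, against 6.57%). The other 33 were not called, and the median log2 fold change was 0.08. Pbx3, a homeobox partner of HOX and MEIS proteins, read 80.5, 74.5, 65.0 and 75.5 CPM in OAL and 36.3, 37.0, 44.9 and 35.3 CPM in YAL HSCs (log2 fold change 0.94 ± 0.11 SE, adjusted p = 0.000266). Its groups did not overlap. Runx3, a RUNX factor, rose from 11.7–13.5 to 20.3–22.3 CPM (0.75). Spi1, which encodes the myeloid and lymphoid factor PU.1, read 52.5, 58.1, 56.2 and 58.5 CPM in OAL and 89.0, 68.9, 75.1 and 85.6 CPM in YAL HSCs. All 4 OAL values lay below all 4 YAL values (log2 fold change -0.50 ± 0.10 SE, adjusted p = 0.00678). Its relative Spib was at 0.132 to 0.596 CPM in OAL and 0 to 4.57 CPM in YAL HSCs and was not tested.

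**Figure D3:**
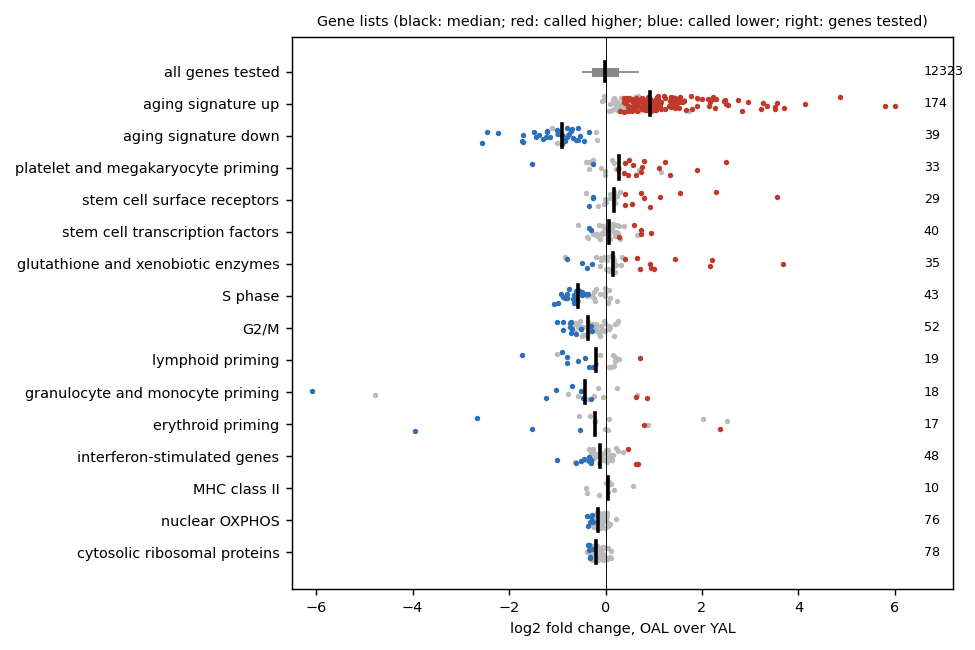
Log2 fold changes of OAL over YAL HSCs for the tested members of 15 gene lists, with a black bar at each list's median, red for higher and blue for lower DEGs. The top row gives all 12323 genes as their median, the middle 50% (thick) and the middle 90% (thin). AS genes lie on opposite sides of 0, S phase and G2/M genes lie mostly to the left, and the median of MHC class II genes is 0.06.

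Many S phase genes fell in OAL HSCs. In the S phase list, 26 of 43 tested genes fell (60.5%, against 6.57% of all genes tested) and none rose, with a median log2 fold change of -0.56. In the G2/M list, 13 of 52 tested genes fell (25.0%) and none rose, with a median of -0.36. The sum of 7 markers of multipotent progenitors, none of them at 0, was lower as well, from 193–406 CPM in YAL to 150–182 CPM in OAL HSCs. Groups did not overlap for 1 of the 5 tested markers, and for 22.2% of all genes tested. The part of such progenitors in the result was not tested. Both counts leaned on single libraries: 14 and 16 S phase genes were called without OAL replicate 2 and OAL replicate 4, and 5 to 7 G2/M genes without any 1 OAL library or YAL replicate 4. With all 6 native groups in 1 fit 18 and 5 were called. Mcm5, a subunit of the replicative helicase, read 86.8, 70.4, 88.3 and 75.6 CPM in OAL and 155, 156, 144 and 179 CPM in YAL HSCs (log2 fold change -0.98 ± 0.10 SE, adjusted p = 7.90e-05). Kif23, a kinesin of cytokinesis, read 20.0, 24.2, 22.5 and 25.2 CPM in OAL and 42.3, 54.1, 50.0 and 38.0 CPM in YAL HSCs (log2 fold change -1.01 ± 0.14 SE, adjusted p = 0.00105). Cdk1, the kinase that starts mitosis, read 17.2, 15.7, 16.5 and 17.9 CPM in OAL and 34.1, 25.4, 28.7 and 36.0 CPM in YAL HSCs (log2 fold change -0.88 ± 0.14 SE, adjusted p = 0.00239). The 4 OAL libraries were low and tight for all 3 genes, and the groups were separate.

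Other named cell cycle genes were less certain. Ect2, an exchange factor of cytokinesis, read 11.0, 7.90, 8.50 and 9.39 CPM in OAL and 18.4, 17.9, 9.48 and 22.4 CPM in YAL HSCs, and YAL replicate 3 fell inside the old range (log2 fold change -0.89 ± 0.25 SE, adjusted p = 0.0356). Its call was lost without any 1 OAL library and without YAL replicate 1, 2 or 4 (-0.98 to -0.72). Hells, a chromatin remodeller of dividing cells, overlapped in the same library and lost its call without any 1 OAL library and without YAL replicate 2 or 4 (log2 fold change -0.92 ± 0.24 SE, adjusted p = 0.0259, -0.96 to -0.69 without these). Rad51ap1, a DNA repair cofactor, fell by 1.08 on the log2 scale and lost its call without any 1 OAL library (-1.13 to -0.99). Mki67, which encodes the proliferation antigen Ki-67, read 32.2, 40.8, 35.4 and 36.0 CPM in OAL and 37.0, 37.5, 8.23 and 38.3 CPM in YAL HSCs, 1 low YAL library among 7 alike (log2 fold change 0.26 ± 0.36 SE, adjusted p = 0.675). Ccna2, cyclin A2, was at -0.20 (adjusted p = 0.298). The checkpoint kinase genes Chek1 and Chek2 were at -0.66 and -0.18 (adjusted p 0.0678 and 0.54), and Brca1, a DNA repair gene, at 0.52 (adjusted p = 0.251). None of these 5 passed the test, but Chek1 passed in DESeq2 (-0.66) and without YAL replicate 1 (-0.81).

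Of 20 tested cyclin, CDK and CDK inhibitor genes 2 rose (10.0%, against 7.57% of all genes tested), 5 fell (25.0%, against 6.57%) and 13 were not called. Ccnd2, cyclin D2, which drives exit from quiescence, read 435, 463, 497 and 514 CPM in OAL and 717, 774, 824 and 775 CPM in YAL HSCs (log2 fold change -0.70 ± 0.07 SE, adjusted p = 7.22e-05). E2f1, an S phase transcription factor, fell from 29.0–40.5 to 14.1–17.8 CPM (-1.18). The rises of the list were Cdkn2c, the CDK4 and CDK6 inhibitor p18, from 6.55–12.7 to 18.9–22.9 CPM (1.27), and Rb1, which holds E2F factors in check, from 69.5–100 to 113–124 CPM (0.54). For each of these 4 genes the groups did not overlap, and the call of Cdkn2c was lost with all 6 native groups in 1 fit (1.28).

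Promoter sequences of 4 falling cell cycle genes are shown as examples that hold known cell cycle motifs, and they were chosen with their matches known. They are the 250 bases before and 50 after the start site from RefSeq on GRCm38.p6, read 5′ to 3′ on the gene's strand. The S phase genes Mcm5 (chr8:75109259-75109558, plus strand) and Mcm6 (chr1:128359656-128359955, minus strand) have capitals at E2F motifs, searched as TTTCCCGC or TTTGGCGC on both strands. Mcm6, another helicase subunit chosen for display after its values and motifs were seen, fell from 399–459.6 to 250.4–298 CPM (-0.65). The G2/M genes Cdk1 (chr10:69352863-69353162, minus strand) and Kif23 (chr9:61946750-61947049, minus strand) have capitals at the cell cycle homology region (CHR), searched as TTTGAA, and at CCAAT boxes, searched as CCAAT, on both strands.
Mcm5: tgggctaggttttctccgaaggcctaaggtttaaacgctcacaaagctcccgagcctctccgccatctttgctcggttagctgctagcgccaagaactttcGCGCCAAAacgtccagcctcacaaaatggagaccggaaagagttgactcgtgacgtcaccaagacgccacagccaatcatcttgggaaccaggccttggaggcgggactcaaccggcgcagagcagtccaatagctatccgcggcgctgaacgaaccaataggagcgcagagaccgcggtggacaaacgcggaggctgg
Mcm6: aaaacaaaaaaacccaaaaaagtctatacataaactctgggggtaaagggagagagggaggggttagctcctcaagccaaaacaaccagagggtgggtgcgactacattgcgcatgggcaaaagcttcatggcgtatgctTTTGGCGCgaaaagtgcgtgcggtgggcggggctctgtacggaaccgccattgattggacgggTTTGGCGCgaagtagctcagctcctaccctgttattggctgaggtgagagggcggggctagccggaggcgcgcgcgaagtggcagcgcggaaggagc
Cdk1: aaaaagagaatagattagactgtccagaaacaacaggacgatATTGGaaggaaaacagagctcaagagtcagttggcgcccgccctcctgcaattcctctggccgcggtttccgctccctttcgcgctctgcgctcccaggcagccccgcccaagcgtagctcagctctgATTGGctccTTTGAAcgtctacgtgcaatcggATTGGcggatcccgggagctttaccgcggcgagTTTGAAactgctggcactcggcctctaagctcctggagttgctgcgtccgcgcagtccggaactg
Kif23: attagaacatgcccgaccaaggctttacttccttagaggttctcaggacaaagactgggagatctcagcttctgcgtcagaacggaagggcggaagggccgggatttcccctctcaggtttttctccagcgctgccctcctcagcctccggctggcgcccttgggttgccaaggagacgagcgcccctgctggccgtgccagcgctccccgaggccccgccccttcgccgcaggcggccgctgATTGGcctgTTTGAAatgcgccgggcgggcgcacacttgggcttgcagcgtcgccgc

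A promoter could be matched for 9311 of the tested genes. An E2F motif was in 11 of 31 promoters of the tested S phase list (35.5%), in 6 of 19 of its lower DEGs (31.6%), in 3.54% of all tested genes and in 1.56% of all 32851 promoters. Among all lower DEGs 5.02% held one, and among all higher DEGs 2.63%. The CHR was in 34 of 46 promoters of the tested G2/M list (73.9%), in 11 of 12 of its lower DEGs and in 14.3% of all tested genes (17.9% of all promoters). A CCAAT box was in 35 of 46 (76.1%), in 11 of 12 and in 43.2% (37.4% of all promoters). A match is a description of the letters in this window. Most of the 19 S phase falls with a promoter held no E2F motif in this window, and Rad51ap1, the largest of them, was among those without one.

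Lineage genes were lower on balance. Of 39 lymphoid genes 19 were tested, 1 rose (5.26%) and 8 fell (42.1%; median log2 fold change -0.19). Of 32 granulocyte and monocyte genes 18 were tested, 2 rose (11.1%) and 7 fell (38.9%; median -0.43). Of 26 erythroid genes 17 were tested, 2 rose (11.8%) and 4 fell (23.5%; median -0.21). Among all genes tested 7.57% rose and 6.57% fell. The share of falls was above this in each list. The share of rises was above it too in the granulocyte and monocyte list and in the erythroid list, with 2 genes each. Cd37, a tetraspanin of B cells, read 44.9, 39.4, 32.0 and 35.5 CPM in OAL and 73.3, 76.0, 75.3 and 58.7 CPM in YAL HSCs (log2 fold change -0.90 ± 0.13 SE, adjusted p = 0.00104). Ltb, the cytokine lymphotoxin beta, fell from 168–251 to 107–154 CPM (-0.81). Irf8, a monocyte and dendritic cell factor, read 5.92, 7.5, 7.17 and 7.87 CPM in OAL and 14.9, 12.3, 12.5 and 18.7 CPM in YAL HSCs (log2 fold change -1.03 ± 0.20 SE, adjusted p = 0.00671). Csf2rb, the common chain of the receptors for GM-CSF and interleukin 3, fell from 16.8–25.0 to 5.70–12.4 CPM (-1.23), while Csf3r, the G-CSF receptor, rose from 81.1–137 to 145–196 CPM (0.63). Flt3, which encodes the Flk2 of the gate, read 17.2, 13.4, 15.9 and 11.5 CPM in OAL and 21.0, 35.2, 23.6 and 21.3 CPM in YAL HSCs (log2 fold change -0.80 ± 0.20 SE, adjusted p = 0.0215), and lost its call without OAL replicate 2 or 4 (-0.77 and -0.71). Of the 6 genes named here, the other 5 kept their call in every fit without 1 library.

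Some lineage genes moved with single libraries. Mpo, the myeloperoxidase of granulocytes, read 0.846, 0.95, 1.23 and 1.59 CPM in OAL and 107, 0.181, 200.2 and 4.74 CPM in YAL HSCs. Its fall rests on YAL replicates 1 and 3, the groups overlap, and the call was lost without OAL replicate 1 or 2 (log2 fold change -6.08 ± 1.42 SE, adjusted p = 0.0154, -5.95 and -6.00 without these) and with replicate numbers as a block (-4.38). Jchain, the joining chain of secreted antibodies, read 47.7, 0.393, 23.8 and 1.26 CPM in OAL and 0.230, 0.995, 0 and 0 CPM in YAL HSCs, so its rise sits in OAL replicates 1 and 3 (log2 fold change 5.75 ± 1.47 SE, adjusted p = 0.0231). It was not called without OAL replicate 3 or YAL replicate 1 or 4 (5.43 to 5.65). Hba-a1, a hemoglobin chain, overlapped as well, at 34.7, 7.41, 35.6 and 56.5 CPM in OAL and 2.76, 2.62, 17.2 and 2.80 CPM in YAL HSCs, and held its call only without OAL replicate 2 or YAL replicate 3 (log2 fold change 2.37 ± 0.69 SE, adjusted p = 0.0404, 2.01 to 2.36 in the fits that lost it). Ighm, the constant part of IgM, was different, with 1.09, 1.31, 1.37 and 1.13 CPM in OAL and 49.1, 11.6, 37.9 and 32.0 CPM in YAL HSCs and every YAL library above every OAL library (log2 fold change -4.73 ± 0.40 SE, adjusted p = 2.18e-05).

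Markers of mature cells were present at low and uneven levels. The 12 B and plasma cell markers summed to 41.3 to 275 CPM in OAL and 92.1 to 194 CPM in YAL HSCs, with none at 0 in every library of a group and 5 below 1 CPM in each group. The 10 neutrophil markers summed to 7.82 to 92.7 CPM in OAL and 8.33 to 714 CPM in YAL HSCs, with none at 0. The 10 erythroid markers summed to 48.4 to 253 CPM in OAL and 60.7 to 156 CPM in YAL HSCs, and the 11 monocyte and macrophage markers to 443 to 493 and 453 to 589 CPM. The sum of the 7 multipotent progenitor markers stood apart, at 150 to 182 CPM in OAL and 193 to 406 CPM in YAL HSCs. Of these 7 markers 5 were tested and 3 fell (60.0%, against 6.57% of all genes tested). Groups did not overlap for 1 of the 5, and for 22.2% of all genes tested. The sum was highest in YAL replicates 1 and 3, where Mpo, 1 of the 7, was high. The sum of the 9 stromal markers stood apart too, at 20.4 to 23.3 and 7.43 to 12.8 CPM, with Bglap at 0 in YAL HSCs. Of the 10 T and NK cell markers, 7 in OAL and 9 in YAL HSCs were below 1 CPM. The part of such cells in the lineage results was not tested.

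Of 48 tested interferon-stimulated genes 3 rose (6.25%, against 7.57% of all genes tested) and 8 fell (16.7%, against 6.57%), with a median log2 fold change of -0.12. With all 6 native groups in 1 fit 2 were called lower, and 0 to 8 were called lower without 1 library (0 without OAL replicate 1 and 1 without OAL replicate 4). Rtp4, a chaperone of surface receptors that interferon induces, rose from 68.0–77.7 to 98.4–137 CPM (0.63). Gbp5, a guanylate-binding protein, rose by 0.66 but not without OAL replicate 2 or 3 (0.61 and 0.64). All 10 MHC class II genes were tested and none was called, with a median of 0.06. Of 26 tested NF-kB targets 4 rose (15.4%) and 1 fell (3.85%; median 0.03), and of 24 AP-1 and immediate early genes 4 rose (16.7%) and 2 fell (8.33%; median 0.01). Of 26 tested heat shock and ER chaperone genes 1 rose (3.85%) and 6 fell (23.1%), with a median of -0.23. Socs3, which shuts off signalling of interleukin 6 type cytokines, read 82.8, 47.9, 35.1 and 48.6 CPM in OAL and 11.1, 15.0, 16.2 and 11.9 CPM in YAL HSCs, and it rose where its relative Socs2 fell (log2 fold change 1.98 ± 0.24 SE, adjusted p = 0.000391). Bcl3, an NF-kB cofactor, rose from 25.1–36.4 to 47.6–69.4 CPM (0.77), and Gadd45g, a growth arrest gene, from 14.6–15.3 to 35.0–42.5 CPM (1.37). Dusp2, a phosphatase of MAP kinases, fell from 113–148 to 86.7–92.4 CPM (-0.54).

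Of 35 tested glutathione and xenobiotic enzymes and metallothioneins 10 rose (28.6%, against 7.57% of all genes tested) and 4 fell (11.4%, against 6.57%; 1 to 5 fell without 1 library), with a median log2 fold change of 0.15. The falls included Mgst1, a microsomal glutathione transferase. Mt1 and Mt2, metallothioneins that bind zinc and copper, lie side by side on chromosome 8 and rose together. Mt1 read 122, 145, 158 and 159.8 CPM in OAL and 33.7, 26.8, 32.2 and 34.1 CPM in YAL HSCs (log2 fold change 2.21 ± 0.11 SE, adjusted p = 3.27e-07), and Mt2 read 23.5, 29.7, 37.4 and 39.9 and 3.56, 2.90, 1.93 and 1.83 CPM (log2 fold change 3.68 ± 0.26 SE, adjusted p = 5.03e-06). Gstm2, a glutathione transferase, read 84.6, 113, 104 and 111 CPM in OAL and 18.5, 19.9, 25.0 and 28.1 CPM in YAL HSCs (log2 fold change 2.17 ± 0.15 SE, adjusted p = 3.34e-06). Near-identical family members can share reads with Gstm2. Scd1, which makes unsaturated fatty acids, was the 1 rise among 27 tested genes of cholesterol and fatty acid synthesis (3.70%), from 3.24–4.89 to 6.70–14.9 CPM (1.54), and 2 fell (7.41%). Of 25 glycolysis genes 1 rose (4.00%) and 2 fell (8.00%).

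Genes of protein synthesis and respiration sat slightly below 0. Of 78 tested cytosolic ribosomal protein genes 7 fell (8.97%, against 6.57% of all genes tested) and none rose (median log2 fold change -0.20), and 72 had a value below 0. Of 76 nuclear genes of oxidative phosphorylation 7 fell (9.21%) and none rose (median -0.15), and 70 were below 0. These counts moved with the scaling and with single libraries: 44 ribosomal and 28 respiratory genes fell with scaling factors from the wider gene set, and 1 to 22 and 2 to 14 with 1 library left out, the most without YAL replicate 2. With all 6 native groups in 1 fit edgeR called 0 ribosomal and 2 respiratory genes, and the count at an unadjusted p was not computed for that fit. Rpl6 of the large subunit fell from 405–464 to 313–385 CPM (-0.34), and was not called in that fit (-0.33). Of 13 mitochondrially encoded genes 8 were tested, of which 2 rose (25.0%, against 7.57% of all genes tested) and 1 fell (12.5%, against 6.57%). Among those not tested were mt-Co2 and mt-Co3, at up to 0.617 and 0.752 CPM in these libraries. Why they read so far below mt-Co1 was not tested. mt-Co1, a core subunit of cytochrome oxidase, rose from 1767–2049.5 to 2519–2860.5 CPM (0.50), and was not called once length and GC were taken out (0.17).

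Among 32 tested genes of DNA methylation and polycomb 2 rose (6.25%, against 7.57% of all genes tested) and 6 fell (18.8%, against 6.57%). Dnmt3b, a de novo DNA methyltransferase, read 65.8, 71.0, 69.3 and 68.2 CPM in OAL and 96.0, 98.8, 118 and 125 CPM in YAL HSCs (log2 fold change -0.68 ± 0.10 SE, adjusted p = 0.00113). Uhrf1, which brings DNMT1 to newly copied DNA, fell from 56.5–87.6 to 37.6–54.1 CPM (-0.79), and Ezh1, a histone H3K27 methyltransferase of resting cells, rose from 119–142 to 169.8–204 CPM (0.45). The groups were separate for all 3 genes, and the call of Uhrf1 was lost with all 6 native groups in 1 fit (-0.79).

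Histone marks were taken from OCR HSCs, so they describe promoters of old HSCs under CR and compare no ages, and the histone libraries of OAL HSCs were not analysed here. Promoter H3K27me3, the polycomb mark of silenced genes, was above 1 unit of the deposited signal for 101 of 861 higher DEGs (11.7%), 43 of 781 lower DEGs (5.51%) and 5.46% of all tested genes with a value. Its medians were 0.207, 0.176 and 0.187. Mab21l2 carried 3.24 and 4.18 in the 2 libraries, and Runx3 3.74 and 3.41. Falls with the mark were Socs2, at 4.95 and 4.41, and Itgb5, at 4.01 and 3.72. Promoter H3K4me3, the mark of active promoters, had medians of 29.8 for higher DEGs, 29.7 for lower DEGs and 30.1 for all tested genes. Higher DEGs had a median expression of 45.6 CPM, lower DEGs 73.2 CPM and all tested genes 44.3 CPM.

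PU.1 binding was taken from 2 ChIP-seq libraries of old wild-type ad lib HSCs, with 3046 and 2900 peaks. A peak of both libraries lay within 1 kb of a start site for 49 of 933 higher DEGs (5.25%, Wilson 95% interval 4.00 to 6.88%), 51 of 810 lower DEGs (6.30%, 4.82 to 8.18%) and 4.03% of all tested genes. Of the 49, 11 were tandem repeat genes described below, and without the 13 repeat genes the share was 38 of 920 (4.13%). Cd53, a leukocyte tetraspanin, carried a peak with its summit 57 bases from the start site in both libraries (12.9-fold and 13.3-fold over background). It read 46.5, 39.2, 35.8 and 58.0 CPM in OAL and 11.0, 5.19, 8.68 and 4.52 CPM in YAL HSCs (log2 fold change 2.62 ± 0.28 SE, adjusted p = 0.000132). Fgd2, an exchange factor of phagocytes, carried a 19.5-fold and a 20.5-fold peak at its start site and went the other way, at 32.8, 35.6, 33.7 and 29.9 CPM in OAL and 67.0, 60.0, 50.3 and 56.8 CPM in YAL HSCs (log2 fold change -0.83 ± 0.12 SE, adjusted p = 0.000987). Spi1 itself was among the lower DEGs with a peak. The promoters of Cd53 (chr3:106790100-106790399, minus strand) and Fgd2 (chr17:29360664-29360963, plus strand), from RefSeq on GRCm38.p6, are shown because a strong peak sits on each, with the PU.1 motif in capitals. The motif was searched as GAGGAAGT on both strands, and it was in 4.09% of promoters of higher DEGs, 3.61% of lower DEGs, 3.78% of all tested genes and 3.20% of all promoters.
Cd53: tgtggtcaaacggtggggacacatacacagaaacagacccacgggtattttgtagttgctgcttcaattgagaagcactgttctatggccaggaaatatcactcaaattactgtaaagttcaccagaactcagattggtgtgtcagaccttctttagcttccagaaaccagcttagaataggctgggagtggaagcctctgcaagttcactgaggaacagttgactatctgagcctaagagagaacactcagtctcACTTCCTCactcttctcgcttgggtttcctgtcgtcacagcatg
Fgd2: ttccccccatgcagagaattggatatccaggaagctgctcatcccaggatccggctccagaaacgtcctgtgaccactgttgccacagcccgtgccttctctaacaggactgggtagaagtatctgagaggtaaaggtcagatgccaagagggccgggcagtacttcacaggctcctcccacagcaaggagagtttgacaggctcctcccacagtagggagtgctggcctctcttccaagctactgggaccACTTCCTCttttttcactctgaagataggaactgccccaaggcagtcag

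The age difference could be read a second time in mice under CR, in libraries that took no part in the first comparison, although old and young mice again differed in source. In OCR versus YCR HSCs 12294 genes were tested, 800 were higher (6.51%) and 758 lower (6.17%). Of the 907 OAL rises tested in both, 94.2% had the same sign under CR, and of the 803 falls 89.4% did, against 72.2% of all 12088 genes tested in both. Of the rises 402 were called again, which is 44.3% of these and 50.2% of the OCR rises, and of the falls 284, which is 35.4% and 37.5%. The medians were 0.48 under CR against 0.64 for rises and -0.29 against -0.44 for falls. The genes were chosen by their call in OAL versus YAL HSCs, which by itself makes the medians larger there. These medians therefore do not compare the diets. The background of receptor genes differed with age in these libraries as well (587 to 1313 CPM in OCR, 69.2 to 499 CPM in YCR HSCs), and with it as a covariate 240 genes were called higher and 205 lower in OCR HSCs.

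The medians of the AS lists had the same sign under CR, and that of the G2/M list had the opposite sign. AS rises had a median of 0.84 and AS falls of -0.55 in OCR versus YCR HSCs, with 106 of 169 and 21 of 38 called. Of all genes tested there 6.51% were called higher and 6.17% lower. Selp was 2.15 higher and Clu 1.86 higher on the log2 scale, and Ebi3 was at -2.19 and Socs2 at -1.90 (adjusted p 0.000768, 0.000247, 3.09e-06 and 0.00096). The S phase median was -0.04, with 1 gene higher and 1 lower, and the G2/M median was 0.44, with 14 higher and 1 lower. Mcm5 was at -0.06, Kif23 at -0.18 and Cdk1 at 0.53 (adjusted p 0.802, 0.491 and 0.074). Mki67, which did not pass under ad libitum feeding, was 0.99 higher in OCR HSCs (adjusted p = 0.00384). OCR mice had received CR for most of life and YCR mice for a month, so age, source and length of restriction cannot be told apart there, and the difference between both comparisons was not tested. Called in opposite directions were 2 rises, Jchain and Igha, and 5 falls, Aldoc, Slfn9, Top2a, Ccnb1 and Prdx4. Top2a, a topoisomerase of dividing cells, was at -0.72 in OAL versus YAL (not called with all 6 native groups in 1 fit, -0.71) and 0.54 in OCR versus YCR HSCs, and Jchain at 5.75 and -8.02. Of 78 tested ribosomal protein genes 50 were called lower under CR (median -0.36), where 6.17% of all genes tested were lower. In OAL versus YAL HSCs 7 were called lower (8.97%, near the 6.57% of all genes, median -0.20), a count that moved with the scaling. The count of 50 was not computed at other scalings. All falls under CR went from 758 to 1538 with the wider TMM set and to 1125 with length and GC taken out.

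A group of 13 predicted genes, named tandem repeat genes here as a group, rose more than any ranked gene. These genes were chosen after their values were seen. Of them 10 fill chr9:3000282-3038316 on mm10, directly after the unsequenced start of the chromosome, 2 lie at chr2:98662237-98667301 and 1 at chr14:19415857-19418930. Bases on chromosome 9 matched those 234 bases further on at 71.3% of positions, and a repeat of that length is the known unit of mouse major satellite, the DNA of pericentromeres. On chromosome 14 the most frequent spacing was 351 bases, at 60.3% of positions. On chromosome 2 it was also 234 bases, but at 32.6% of positions, so these values do not show a tandem repeat there. The 2 genes on chromosome 2, Gm10800 and Gm10801, had the highest means of the 13 in OAL libraries, at 8125 and 1102 CPM. The best matches between the stretches were at 87.3 to 92.6% identity. Matches covered 100% of the chromosome 9 and 14 stretches, but 35.5 to 35.7% of the chromosome 2 stretch. In the matching parts, which gene a read was counted on is uncertain, and for these the sum is the better value. The 13 genes summed to 8730 to 14370 CPM in OAL and 70.2 to 144 CPM in YAL libraries. No OAL library came near any YAL library. Single genes were 76.4-fold to 119-fold higher (log2 fold change 6.26 to 6.89, highest adjusted p 2.27e-06), and YAL libraries held 2 to 2936 counts of each. Under CR they summed to 7919 to 24100 CPM in OCR and 41.0 to 465 CPM in YCR libraries (log2 fold change 5.40 to 6.45, highest adjusted p 0.00038), and after refeeding to 16560 and 26310 CPM in old and 114 to 787 CPM in young libraries. With the receptor background as a covariate, which that fit cannot tell from age, 9 of the 13 kept their call, at log2 fold changes of 3.60 to 5.01.

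**Figure D4:**
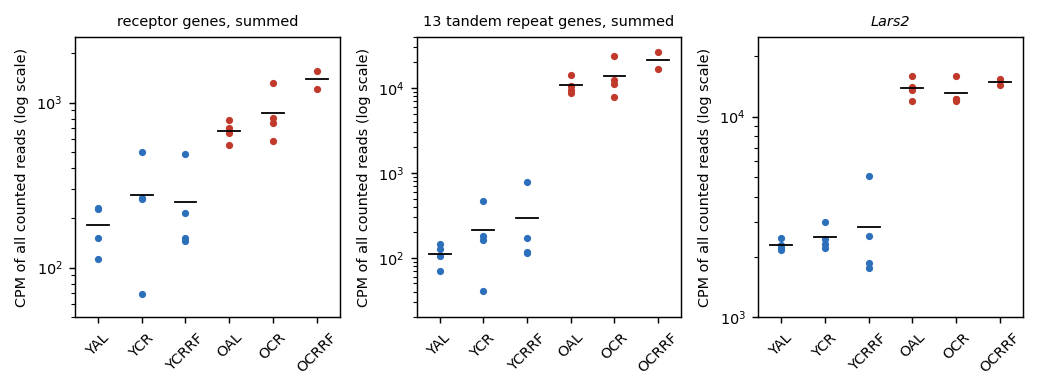
CPM of all counted reads, on log axes, in each native RNA-seq library of the series: olfactory and vomeronasal receptor genes in sum (left), the 13 tandem repeat genes in sum (middle) and Lars2 (right). Points are libraries, black bars group means, red is old and blue is young, and RF marks mice refed after CR. Every old library lies above every young one in each panel, narrowly for receptor genes (lowest old value 553 CPM, highest young value 499 CPM).

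Lars2, the mitochondrial leucyl-tRNA synthetase, had the highest mean CPM among the rises, at 12151, 13881, 14589 and 16387 CPM in OAL and 2226, 2175, 2502 and 2293 CPM in YAL HSCs (log2 fold change 2.63 ± 0.08 SE, adjusted p = 1.89e-08). It was named after its values were seen, as were the genes that follow. It shares a stretch of 72 bases at 98.6% identity with Gm15564, an antisense transcript on chromosome 16 that rose by 2.51 on the log2 scale, so part of its reads cannot be assigned. In contrast CT010467.1, annotated as ribosomal RNA, fell by 1.09 on the log2 scale, and Gm42418, which overlaps it, fell by 0.93. With the receptor background as a covariate, which that fit cannot tell from age, Lars2 kept its call (2.77 ± 0.26 SE), while CT010467.1 and Gm42418 changed sign and were not called (0.54 and 0.55).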

How the data were processed

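The deposited RNA-seq files held raw counts per gene, which the authors made by trimming with cutadapt, alignment to mm10 with STAR and counting with featureCounts on GENCODE release 22. How reads with several matches or strands were treated is not given in the sources used here. The deposited PU.1 peak files, made by the authors with BWA and MACS2 per library, held a score, a fold enrichment, and -log10 p-values and q-values. The deposited histone files held coverage signal, summarised here over 750 bases (H3K4me3) and 2000 bases (H3K27me3) at start sites.

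Genes averaging 5 CPM or more were scaled by TMM and tested with edgeR 4.0.16 in R 4.3.3 (quasi-likelihood F-test, Benjamini-Hochberg adjusted). Tests ran within OAL and YAL, and within OCR and YCR. On simulated data for OAL versus YAL (12323 genes), 84.1% of 200 genes changed 2-fold were recovered. Gene places came from GENCODE release 21 on mm10. Named were the 15 largest called changes without overlap in each direction, up to 3 called members of each list in each direction, genes the study names and defining markers. The members and lists were chosen with earlier results of these data known. Alternatives included DESeq2 1.42.0, other filters and scalings, a covariate, a replicate block and each library left out. Precision is limited by 4 libraries a group, and the Wilson 95% intervals cover counting error only. The labels name a total RNA kit and the study's methods another, so the library kit is uncertain. Some genes that these rules would name are not reported here.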

Additional observations from a re-analysis of the deposited data

Results flagged for a closer look

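In 12 of the 108 named genes with a value, 1 library stood apart from the other 3 of its group by Dixon's criterion at the 95% level. Chance meets it in about 1 of 20 groups. Both groups of each gene were examined, so this number is near what that rate gives. Among the largest rises and falls these were Sbspon in YAL replicate 2 (8.99 CPM), Shisa8 in YAL replicate 3 (57.4 CPM), Itgb5 in OAL replicate 4 (3.24 CPM) and Serpina3f in YAL replicate 2 (90.2 CPM). Among the other named genes, YAL replicate 3 stood apart for Mki67 (8.23 CPM, low), Hba-a1 (17.2 CPM, high) and Kdr (32.5 CPM). YAL replicate 1 stood apart for Ezh1 (119 CPM) and for Clec9a, a receptor for dead cells (8.79 CPM), and YAL replicate 4 for Cd37 (58.7 CPM). OAL replicate 4 stood apart for Brca1 (9.52 CPM) and OAL replicate 1 for Egr1 (166 CPM).

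For 5 genes every old library lay below every young library under ad libitum feeding and above every young library under CR, and the difference between both comparisons was not tested. Cdk1 was at -0.88 on the log2 scale in OAL versus YAL HSCs and at 0.53 in OCR versus YCR HSCs. Top2a was at -0.72 and 0.54, and Ccnb1, the cyclin partner of Cdk1, at -0.61 and 0.84. Aldoc, a glycolytic aldolase, was at -0.44 and 0.72, and Prdx4, a peroxiredoxin, at -0.39 and 0.35. The calls of 3 of these genes in OAL versus YAL HSCs were lost when 1 library was left out, namely Ccnb1 (any OAL library, YAL replicate 3 or 4, -0.67 to -0.50), Aldoc (OAL replicate 2, 3 or 4, -0.44 to -0.39) and Prdx4 (OAL replicate 1 or 2, -0.36).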

How the results depend on the processing

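The OAL versus YAL comparison gave 933 rises and 810 falls. Rises numbered 552 with all 6 groups in 1 fit, 1620 with filterByExpr, 4485 with no filter, 247 above 2-fold, 32 with the receptor background as a covariate and 513 to 1127 without 1 library. Falls numbered 418, 1866, 2186, 78, 5 and 381 to 900 in the same order, 1370 with length and GC taken out and 2014 with TMM factors from a wider gene set. The OCR versus YCR comparison gave 800 and 758. Its rises numbered 501 with the wider TMM set, 490 with length and GC taken out, 1842 with no filter, 197 above 2-fold, 240 with the covariate and 430 to 985 without 1 library. Its falls numbered 1538 with the wider TMM set, 440 in the 6-group fit, 1202 with filterByExpr, 1399 with no filter, 80 above 2-fold, 205 with the covariate and 304 to 832 without 1 library. The lowest counts came without OAL or OCR replicate 2. AS rises called were 72 above 2-fold and 8 with the covariate, and AS falls 15 and 2. The share of DEGs with the same sign under CR was 91.9%, and 94.1% with filterByExpr. PU.1 peaks were at 5.74% of DEGs, at 11.6% within 10 kb and at 9.24% with a peak in at least 1 library. The receptor background ratio was 1.74 to 2.04 on the log2 scale without 1 library, where the smallest possible p is 0.0571. With the covariate Mpo (7.44), Slamf1 (-0.10), Jchain (-2.26), CT010467.1 (0.54) and Gm42418 (0.55) changed sign. In the 6-group fit Ect2 (-0.88), Hba-a1 (2.39), Bmp4 (0.80), Gbp5 (0.67), Flt3 (-0.79), Aldoc (-0.43) and Ccnb1 (-0.60) also lost their calls. DESeq2 also called 930 of the rises and 792 of the falls. Except where a fold above 2, fewer genes or fewer libraries make it plain, the cause was not tested.

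The labels give each group replicates 1 to 4, but same-numbered libraries did not deviate together (correlations 0.0224, -0.0285, -0.0295 and 0.0701), so the numbers do not pair them. With the replicate block there were 844 rises and 572 falls, 768 and 558 of them shared with the fit without it. The block together with length and GC taken out gave 578 rises, and 464 in OCR versus YCR HSCs.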

Other observations

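Gene families outside the lists were examined after their values were seen, so their counts are descriptions. All 8 tested genes with a Gimap name fell in OAL HSCs (6.57% of all genes tested fell). They are 7 GTPases of immune cells and Gimap1os, an opposite-strand transcript whose reads may not be separable from its neighbour's. They fell without overlap between the groups (22.2% of all genes tested did not overlap), at log2 fold changes of -2.07 to -0.41 (median -0.68). In OCR versus YCR HSCs 5 of the 8 fell, where 6.17% of all genes tested fell. Of 9 tested Clec genes, C-type lectin receptors, 4 rose (Clec4e, Clec1b, Clec9a and Clec1a) and none fell, where 7.57% of all genes tested rose and 6.57% fell. In OCR versus YCR HSCs 2 of the 9 rose, where 6.51% of all genes tested rose. Of 77 tested mitochondrial ribosomal protein genes 7 fell and none rose (median -0.18), against 6.57% of all genes tested that fell.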
